A study of Mus musculus with 8 samples.

Results

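The 10 genes described here encode the mediators that open an inflammatory response: the cytokine tumour necrosis factor (Tnf), the interleukin-1 ligands Il1a and Il1b with their soluble antagonist Il1rn, the IL-6 class cytokines Il6, Lif and Osm, the neutrophil growth factor Csf3, and the enzymes Ptgs2 and Nos2. They were taken by gene name from the 34790 gene names on the array, and each was represented by 1 probe. The study measured RNA from the back skin of female C57 BL/6 mice, with 1 array for each of 8 samples. The hair follicles were in telogen, the resting phase of the hair cycle, when the hair was removed. The phase of the follicles on the later arrays was not examined here and may differ from the control's. The shaved control was taken right after shaving at a labelled age of 10 weeks. The plucked samples were taken after hair removal with wax: 12 h, 1 d, 2 d and 4 d later at 10 weeks of age, 6 d and 10 d later at 11 weeks, and 50 d later at 17 weeks. The series' design text describes an earlier round of wax stripping that synchronised the follicles before the plucking studied, and it does not say whether the shaved mouse had it. The labels call the tissue adipose cell, whereas the design text describes the surroundings of the follicle, fat and dermis included. Of 12 adipocyte markers, 12 were well above background on all 8 arrays, as were 8 of 8 fibroblast markers, 12 of 12 macrophage and monocyte markers and 9 of 10 markers of interfollicular keratinocytes, so RNA of other skin cells was measured along with that of fat.

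TNF and IL-1 are released by macrophages, keratinocytes and other cells within hours of injury, and both act through NF-kB to switch on chemokines, adhesion molecules, IL-6, G-CSF (the product of Csf3), COX-2 (Ptgs2) and inducible nitric oxide synthase (Nos2). IL-6, LIF and oncostatin M (Osm) signal through the shared receptor chain gp130 and STAT3, and the pathway switches on its own inhibitor, Socs3. In skin these signals recruit neutrophils and macrophages, and fat cells also respond to and release several of them.

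Every difference below compares 1 plucked sample with the same shaved control, so no p-value or spread between mice can be given, and the differences at the 7 times share that control's error. A level is the log2 of the background-subtracted signal minus the 75th percentile of all probes on the array: a level of 0 is that percentile and 1 unit is a factor of 2. Levels compare arrays for the same gene, not genes with each other. The 75th percentile of the signal was between 569.9 and 1081 on the 8 arrays, between 72.9% and 81.2% of spots were well above background, and no spot was saturated. Among 399 probes spotted 10 times the median SD between spots was 0.06 to 0.10 on the log2 scale, which is error within an array and not between mice. A gene was counted as higher or lower at a time when its difference from the control reached 2-fold, provided that the brighter of the 2 arrays read it well above background. The tissue is bulk, so a lower level can mean fewer cells of a type or less RNA per cell, and these cannot be told apart.

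The 12 h array stood apart from the rest. All 8 markers of B cells and lymph node were higher than in the control there, by a median of 4.29 on the log2 scale, including the B cell antigen Ms4a1 (5.71) and the lymph node endothelial mucin Glycam1 (at least 1075-fold). Their summed level, on the log2 scale, was 5.97 at 12 h and between -0.01 and 0.95 on the other 7 arrays. The arrays also lay in 2 rows of 1 slide: 12 h, 1 d, 2 d and 50 d in the first, the control, 4 d, 6 d and 10 d in the second. All 6 differences of members that passed 2-fold with measured values set a first-row array against the second-row control. The mean of the first row was above that of the second by 1.32 for Il1b, 0.99 for Il6, 0.58 for Ptgs2 and 0.29 for Tnf, and by a median of 0.35 over 8 members and 0.03 over all genes. The part of the slide row and of the lymph node genes in the results below was not tested.

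The promoters of the 4 members that differed by at least 2-fold with measured values on both arrays are shown because those members carry the largest measured differences. These were Tnf at 12 h, Il1b and Il6 at 12 h and 50 d, and Ptgs2 at 2 d. Each is the 250 bases upstream of the start site from RefSeq (GRCm38.p6), 5′ to 3′ on the gene's strand. Capitals mark matches, on either strand, to the TATA box (TATAAA), an NF-kB motif (GGG, any 3 bases, then TTCC), the core of the cyclic AMP response element, CRE (ACGTCA), AP-1 (TGANTCA) and C/EBP (TTGNGNAA).
Tnf, chr17:35202008-35202257, minus strand: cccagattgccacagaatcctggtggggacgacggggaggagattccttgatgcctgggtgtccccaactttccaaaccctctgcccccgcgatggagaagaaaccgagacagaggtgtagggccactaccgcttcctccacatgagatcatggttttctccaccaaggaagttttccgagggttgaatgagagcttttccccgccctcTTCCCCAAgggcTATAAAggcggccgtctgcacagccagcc
Il1b, chr2:129371140-129371389, minus strand: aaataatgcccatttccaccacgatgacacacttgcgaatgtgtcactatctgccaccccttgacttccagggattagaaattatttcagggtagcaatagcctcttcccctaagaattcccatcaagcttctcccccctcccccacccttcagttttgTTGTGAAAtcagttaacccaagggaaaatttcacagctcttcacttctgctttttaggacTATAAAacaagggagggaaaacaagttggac
Il6, chr5:30012864-30013113, plus strand: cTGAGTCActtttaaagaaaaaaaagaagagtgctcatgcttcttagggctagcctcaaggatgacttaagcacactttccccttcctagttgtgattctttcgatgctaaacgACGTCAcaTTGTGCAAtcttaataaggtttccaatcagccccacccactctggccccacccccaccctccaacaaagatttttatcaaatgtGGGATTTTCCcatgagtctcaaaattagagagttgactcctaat
Ptgs2, chr1:150099781-150100030, plus strand: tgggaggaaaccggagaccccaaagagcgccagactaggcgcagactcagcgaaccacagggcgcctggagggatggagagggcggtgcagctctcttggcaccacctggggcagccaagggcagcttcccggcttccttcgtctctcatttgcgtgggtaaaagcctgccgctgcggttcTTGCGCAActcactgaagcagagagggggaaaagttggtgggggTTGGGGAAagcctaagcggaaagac
The Tnf window held a TATA box 29 to 24 bases upstream and a C/EBP match on the reverse strand 41 to 34 bases upstream, and the Il1b window a TATA box at 31 to 26 and a C/EBP match, TTGTGAAA, at 91 to 84. The Il6 window held 4 of the 5 kinds of motif: NF-kB (GGGATTTTCC, 44 to 35 bases upstream), C/EBP (128 to 121), CRE (136 to 131) and AP-1 (249 to 243). The Ptgs2 window held 2 C/EBP matches, at 25 to 18 and 69 to 62, and none of the other 4 kinds. Of 32851 promoter windows of the same length, 12.4% held the TATA box, 4.65% the NF-kB motif, 6.47% the CRE core, 6.75% the AP-1 motif and 11.7% the C/EBP motif. A match describes letters only. None of the 5 motifs overlapped another in these 4 windows. Of the 10 members, 7 had a promoter entry. Il1a held TATA, AP-1 and C/EBP matches, Lif 1 AP-1 match, and the 3 Il1rn start sites 1 to 2 matches each.

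Among the 70 pairs of a member and a time, 58 had the brighter array well above background. Of the 70, 8 were at least 2-fold higher than the control and none was lower. At a single time between 2.62% and 5.9% of all genes were higher and between 2.1% and 6.5% lower. The absence of lower members is therefore not a result about them. Of the 8, 6 were measured on both arrays: Tnf, Il1b and Il6 at 12 h, Ptgs2 on the 2 d array, and Il1b and Il6 on the 50 d array. The other 2, Csf3 at 12 h and Il1a at 6 d, were read against a control spot that was not well above background and have only a bound. Il1rn, Lif, Osm and Nos2 did not pass 2-fold at any time.

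**Figure D1:**
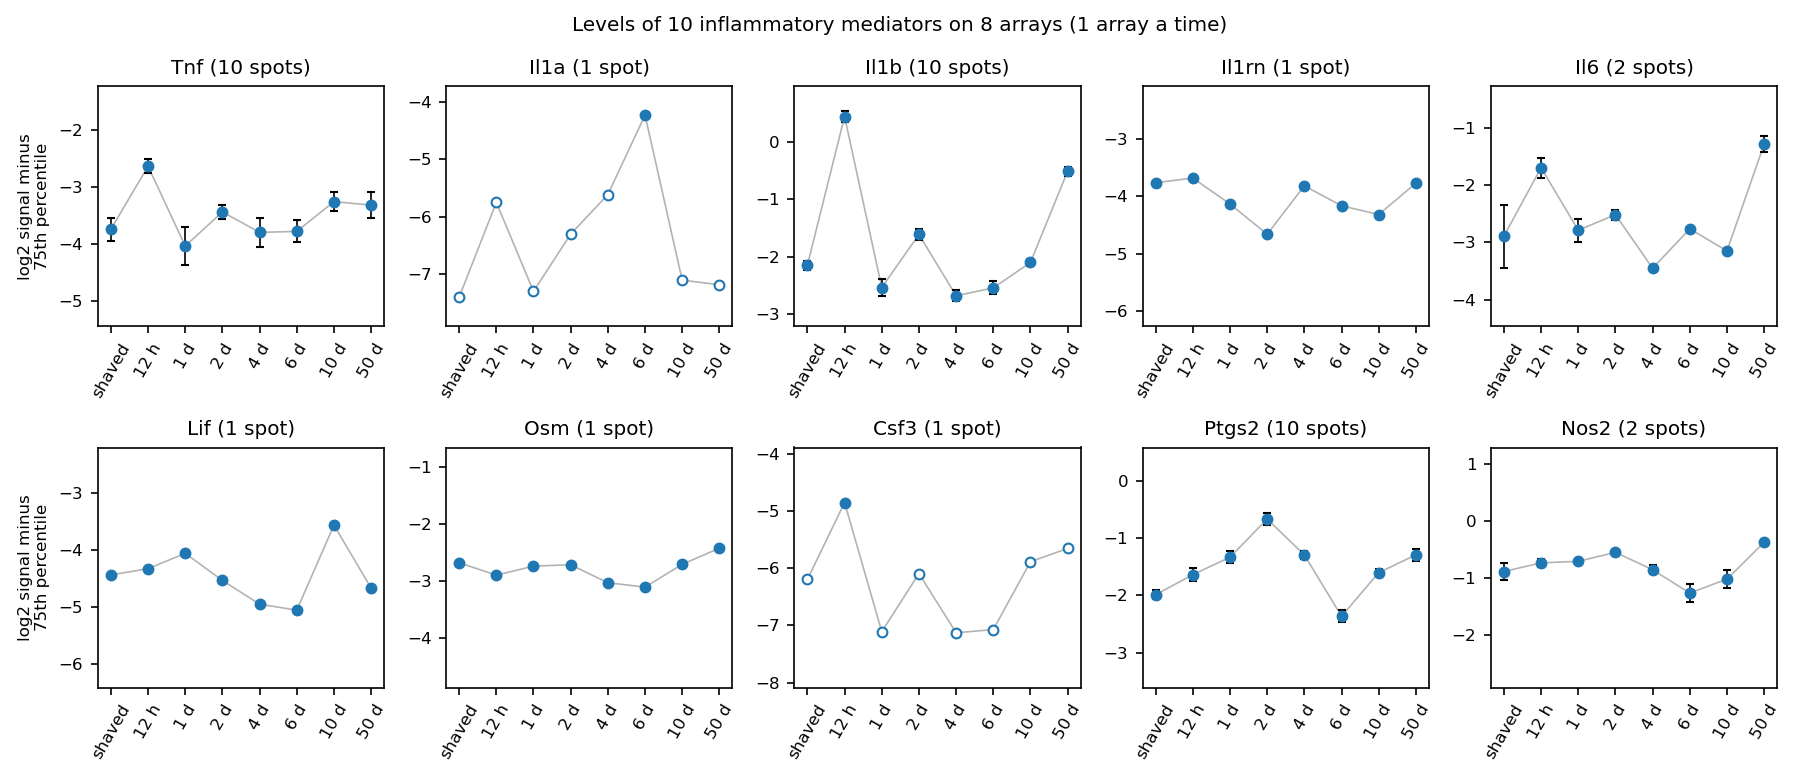
Level of each of the 10 mediators (log2 signal minus the array's 75th percentile) on the shaved control and 7 arrays after plucking, with filled points well above background, open points not, bars the SD between spots of the probe, and every panel spanning the same number of log2 units. Il1b stands at 0.45 at 12 h and -0.51 at 50 d against -2.15 in the control, while Osm and Nos2 stay within about 1 unit.

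Tnf, the founding cytokine of its family (10 spots, probe at chr17:35336795-35336854 on mm9, minus strand), had a level of -3.74 in the control. After plucking its level was -2.64 at 12 h, then -4.03, -3.44, -3.80, -3.78, -3.26 and -3.32 on the later 6 arrays in order of time. The 12 h array was the highest, and the other 7 lay between -4.03 and -3.26. At 12 h Tnf was 1.10 above the control on the log2 scale, or 2.15-fold (SE between spots 0.08). The spots did not overlap: 8 spots lay between -2.79 and -2.49 at 12 h, and 10 between -4.04 and -3.42 in the control. This difference was larger than that of 96.6% of genes. The signals behind it were low, 51.3 in the control and 135 at 12 h, and with another background correction (normexp) the difference was 0.49, below 2-fold. From 12 h to 1 d Tnf was lower by 2.63-fold, back below the control.

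The rest of the TNF superfamily, the ligands related to Tnf, differed most at the same time. At 12 h, 5 of 14 measured ligands were higher, and 1, Tnfsf18, was lower (-1.31). The higher ones were lymphotoxin beta (Ltb), by 4.92 and lymphotoxin alpha (Lta) by 3.12 on the log2 scale, both made chiefly by lymphocytes, Tnfsf8 by 1.46, Tnfsf11 by at least 1.68-fold and Fasl by at least 1.59-fold, the last 2 counted with the control's own dim value. The lymph node markers given above and 4 of 8 T cell markers were higher on the same array. From 1 d to 50 d no ligand of the list was higher than the control, and between 0 and 4 were lower.

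Il1b, the secreted form of IL-1 (10 spots, chr2:129190347-129190406, minus strand, mm9), showed the largest measured difference of the 10 mediators. Its level was -2.15 in the control and 0.45 at 12 h. It was then -2.54, -1.61, -2.68, -2.55 and -2.10 from 1 d to 10 d, and -0.51 at 50 d. It was thus high on 2 arrays, 12 h and 50 d, with the 5 arrays in between at or below -1.61. At 12 h it was 6.05-fold above the control (2.60 on the log2 scale, SE between spots 0.04), with signals of 154 and 1146, and ranked 217 of 29613 genes. The 10 spots lay between 0.26 and 0.57 at 12 h and between -2.28 and -2.02 in the control. By 1 d the level was 7.94-fold lower than at 12 h. At 50 d it was 3.12-fold above the control (SE of the log2 difference 0.04) and ranked 196 of 28464 genes, with spots between -0.61 and -0.36, so neither array's spots overlapped the control's. Under the normexp correction the log2 differences were 2.19 and 1.32, both past 2-fold.

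Il1a, the IL-1 that keratinocytes store (1 spot, chr2:129125994-129126053, minus strand, mm9), was well above background only at 6 d, with a level of -4.23 and a signal of 57.8. On the other 7 arrays its spot gave a signal too dim to place. Against the faintest measurable level in the control, the 6 d value was at least 1.83-fold higher. Under the normexp correction the log2 difference at 6 d was 0.43. At 6 d, 5 of 10 markers of interfollicular keratinocytes were higher than in the control. On each of the 4 earlier arrays 10 of 10 of these markers were higher, and Il1a was too dim to place. Which cells the Il1a signal came from was not tested.

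Il1rn, the receptor antagonist that blocks both IL-1 ligands (1 spot), had a level of -3.76 in the control and, in order of time, -3.68, -4.13, -4.66, -3.82, -4.16, -4.32 and -3.77 in the 7 plucked samples. Its largest difference was at 2 d, 0.90 below the control on the log2 scale, and -0.30 at that time under the normexp correction. On the 2 arrays where Il1b was high, Il1rn lay within 0.08 of the control, while Il1b was 2.60 and 1.64 above it.

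Some other members of the IL-1 family were above the control on more arrays than Il1b. Il18 and Il33 were higher at no time, and Il18 was lower at 4 d (-1.04). Of 7 counted at 12 h and at 1 d, 4 and 5 were higher, and of 6 counted on each of the next 3 arrays, 3 were higher each time. Only 4 were counted at 10 d, where 1 was higher, Il1f10 (1.42), and 4 at 50 d, where none was. The median difference of the list went from 2.33 at 12 h through 2.03, 1.35, 0.89, 1.08 and 0.74 to 0.43 at 50 d. These medians cover different sets of genes, so their decline is partly a change of set. The 4 at 12 h were the IL-36 group, epithelial cytokines that the array names Il1f5 (now Il36rn, the antagonist), Il1f6 (Il36a), Il1f8 (Il36b) and Il1f9 (Il36g). The fifth at 1 d was Il1f10 (1.77). In the control Il1f6, Il1f8 and Il1f9 were not well above background, and their own dim values entered these counts and medians. The bound of Il1f9 at 1 d was at least 1.76-fold, short of 2-fold. Il1f6 was at least 22.2-fold higher at 12 h, at least 16.2-fold at 1 d and at least 6.97-fold at 2 d, against a control spot not well above background. At 4 d and 6 d it is counted but has no bound above the control, so the measured calls were Il1f5 alone at 4 d and Il1f5 and Il1f10 (2.40) at 6 d. Il1f5 was above the control by 3.37, 3.82, 2.57, 3.69 and 2.87 on the log2 scale on the 5 arrays up to 6 d, in order of time, and by 0.56 and 0.66 on the last 2. The keratinocyte markers were high on the same arrays through 6 d. Against the 1 d array in place of the control, none of the family was higher at 12 h.

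Of the 9 genes of the inflammasome and processing list, no gene was higher from 12 h to 10 d, and at most 3 were lower at any time. At 4 d, 3 of the list were lower: the sensors Naip2 (-1.60) and Nlrp1b (-1.42) and the pore-forming gasdermin Gsdmd (-1.26). At 50 d the sensor Nlrp3 was higher by 1.24 and Gsdmd lower by 1.06. Macrophage and monocyte markers were lower on the same arrays, 9 of 12 at 4 d and 6 of 12 at 50 d.

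Il6 (2 spots, chr5:30346367-30346426, plus strand, mm9) had a level of -2.89 in the control and -1.70 at 12 h. From 1 d to 10 d it lay at -2.79, -2.52, -3.45, -2.76 and -3.15, and at 50 d at -1.28. Like Il1b it was high at 12 h and 50 d only, but its order was the reverse: the 50 d array was the highest. Il6 was 2.29-fold above the control at 12 h (SE of the log2 difference 0.41) and 3.05-fold at 50 d (0.40), where it ranked 206 of 28464 genes. The error came mostly from the control, whose 2 spots lay at -3.28 and -2.50, while the 12 h spots were -1.82 and -1.57 and the 50 d spots -1.38 and -1.19. Under the normexp correction the difference at 12 h was 0.74, below 2-fold, and that at 50 d 1.15. Between 10 d and 50 d Il6 differed by 3.65-fold.

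Neither Lif nor Osm passed 2-fold. Lif, an inducer of STAT3 signalling named for its effect on leukaemia cells, had levels of -4.44 in the control and -4.33, -4.06, -4.53, -4.95, -5.05, -3.57 and -4.67 in the plucked samples, in order of time. Its highest array was 10 d, 0.87 above the control and 1.49 above 6 d, on 1 spot with a signal of at most 54.1. Under the normexp correction Lif was 0.39 above the control at 10 d. Osm, oncostatin M, lay between -3.11 (6 d) and -2.43 (50 d) with the control at -2.68, so no array differed from the control by more than 0.43. Of 7 measured relatives of the IL-6 family at 12 h, 2 were higher, the ligand Clcf1 (1.13) and the ciliary factor Cntf (1.47). At 1 d 2 of 7 were higher, Cntf (1.05) among them, and the IL-27 subunit Ebi3 was lower (-1.31). Ebi3 was also lower at 2 d (-1.50) and 4 d (-1.66) and just past 2-fold lower at 50 d, and Cntf higher at 10 d (1.16), the other calls of the list.

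Csf3, which encodes the growth factor of neutrophils (1 spot, chr11:98564614-98564673, plus strand, mm9), was well above background only at 12 h, with a level of -4.85 and a signal of 29.0. The other 7 spots had signals between 4.49 and 11.3 and were not well above background. The bound at 12 h was at least 1.18-fold above the control, and with the control's own dim value the difference was 1.35 on the log2 scale. Under the normexp correction that difference was 0.04. Among 11 measured neutrophil markers at 12 h, 4 were higher, S100a8 by 4.49, S100a9 by 4.27, Cxcr2 by 3.14 and the granule protease Mmp8 by at least 4.07-fold, and 1, Retnlg, was lower (-1.03). The receptor of G-CSF, Csf3r, differed by 0.18 on that array and Ly6g by -0.41. S100a8 and S100a9 are also made by keratinocytes after wounding, and 7 of 7 wound keratinocyte markers were higher at 12 h. Which cells the differences of these 4 neutrophil markers came from was not tested.

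Ptgs2, the inducible cyclooxygenase that starts prostaglandin synthesis (10 spots, chr1:151954744-151954803, plus strand, mm9), was highest at 2 d, later than Tnf and Il1b. Its level was -1.99 in the control. It was -1.64 at 12 h, -1.33 at 1 d and -0.67 at 2 d, and then -1.29, -2.37, -1.60 and -1.29 up to 50 d. Of the 7 plucked samples, 6 lay above the control and 6 d below it. At 2 d it was 2.50-fold above the control (1.32 on the log2 scale, SE between spots 0.04) and ranked 430 of 28819 genes, with spots between -0.89 and -0.50 against -2.17 and -1.89. Under normexp the difference was 1.07. Between 4 d and 6 d Ptgs2 was lower by 2.10-fold.

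The other genes of the prostaglandin pathway were not higher when Ptgs2 was highest. At 2 d none of the list was higher and 3 were lower: the thromboxane synthase Tbxas1 (-1.27), the prostaglandin E2 receptor Ptger2 (-1.06) and the prostacyclin synthase Ptgis (-1.04). At 4 d 2 of 16 were higher, the prostaglandin D2 synthase Ptgds by 2.61, the largest value of the list, and the receptor Ptger4 by 1.01. On that array 4 were lower: Ptger2 (-1.60), Ptgis (-1.55), Tbxas1 (-1.31) and the other prostaglandin D2 synthase, Hpgds (-1.01). Ptgds was also higher at 6 d (1.89) and 10 d (1.29).

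Nos2, the inducible nitric oxide synthase (2 spots, chr11:78773567-78773626, plus strand, mm9), varied little. It lay at -0.88 in the control and, in order of time, at -0.73, -0.71, -0.55, -0.85, -1.26, -1.02 and -0.37 after plucking. Its largest difference was 0.51, at 50 d. Nos2 was the only 1 of the 8 members well above background throughout whose 4 arrays in the first slide row (-0.73 to -0.37) all lay above the 4 in the second (-1.26 to -0.85), as did 6.1% of 26135 genes. For no member did the first row lie wholly below the second, as it did for 2.04% of genes. Of 11 genes that handle nitric oxide and its substrate arginine, 3 were higher at 4 d and 3 at 6 d, with list medians of -0.14 and -0.11. At 4 d they were the transporter Slc7a1 (2.63) and the arginases Arg1 (2.20) and Arg2 (1.88), and at 6 d Arg1 (2.15), Slc7a1 (1.86) and the arginine-forming enzyme Ass1 (1.69). At 50 d, where Nos2 was highest, Ddah1 was higher by 1.05.

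**Figure D2:**
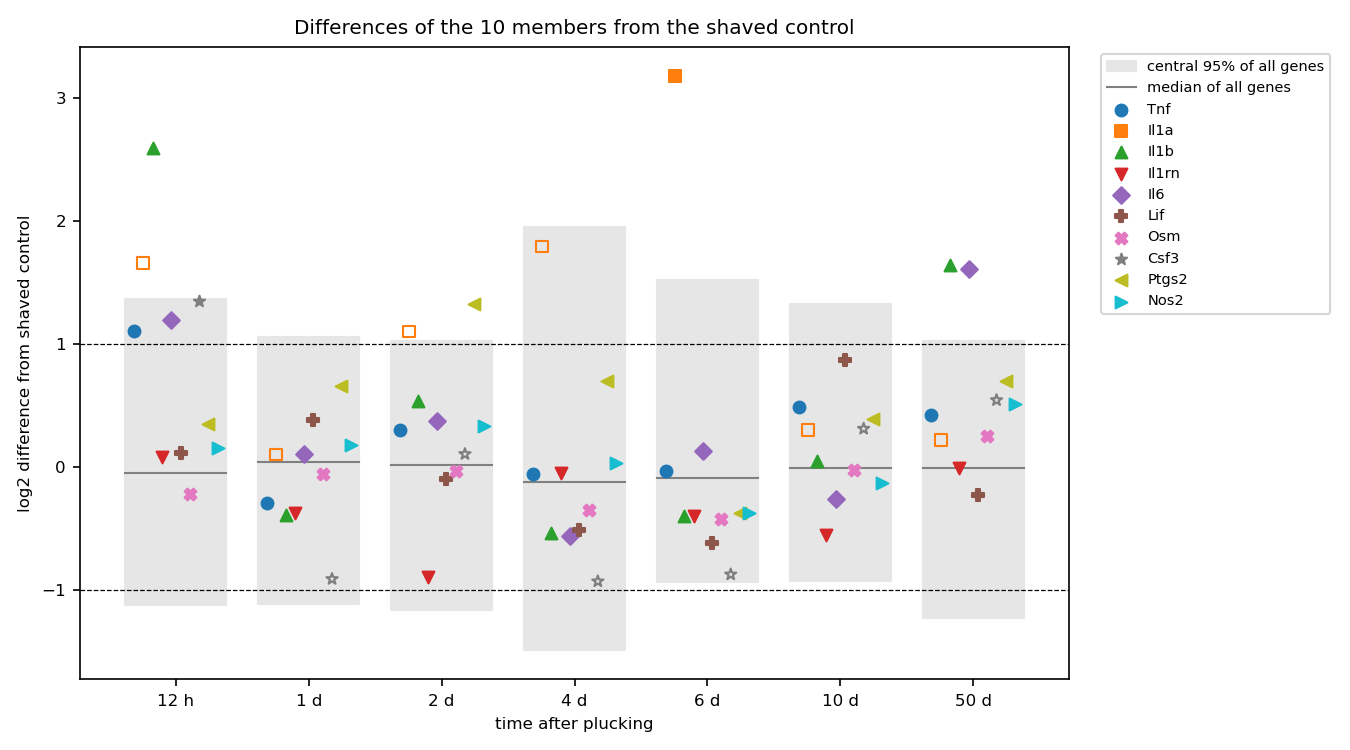
Difference of each mediator from the shaved control (log2) at the 7 times, drawn over the central 95% of all genes (grey boxes, with the median as a line), with dashed lines at 2-fold and open symbols where neither array was well above background. Il1b at 12 h (2.60) and 50 d (1.64), Il6 at 50 d (1.61) and Ptgs2 on the 2 d array (1.32) lie above the grey boxes, as do dim values of Il1a (3.18 at 6 d), drawn like Csf3 with the control's own dim value, for which the text gives a bound.

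By time, 4 members were higher at 12 h (Csf3 with a bound only), where 3.86% of 29613 genes tested were higher. None was higher at 1 d, where 2.76% of genes were, and 1 was at 2 d, where 2.62% were. None was higher at 4 d (5.9% of genes), Il1a with a bound only at 6 d (4.17%), none at 10 d (3.99%) and 2 at 50 d (2.7%). No member was lower at any time, and the share of all genes that were lower was, in order of time, 3.33%, 3.14%, 3.52%, 6.5%, 2.1%, 2.13% and 4.4%. A background of a few percent amounts to less than 1 of 10 members, so a count of 0 or 1, as between 1 d and 10 d, is not a result about the members. At 12 h the 3 members with measured values stand against 8 that were well above background throughout. The 3.86% of genes at 12 h also includes genes read against a dim control, so it was not counted with the same filter. The median of the members measured was 0.35 at 12 h and 0.47 at 50 d, against -0.05 and -0.01 for all genes. The 12 h array was the highest of the 8 for 4 members and the 50 d array for 3, and the lowest array was 6 d for 4 and 4 d for 3.

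The receptors of these cytokines stayed close to the control. Of 10 receptor genes at each of 7 times, 1 passed 2-fold: the TNF receptor Tnfrsf1b, lower by 1.07 at 4 d. The list's median lay between -0.39 and 0.22. Of 12 feedback inhibitors at 12 h none was higher and Cish, an inhibitor of STAT5 signalling, was lower by 1.12, while at 10 d it was higher by 1.66. Socs3, which restrains gp130 signalling, was higher by 1.02 at 2 d, and Tnfaip3, which restrains NF-kB, by 1.02 at 50 d. At 4 d the atypical NF-kB regulator Nfkbiz (-1.26) and the mRNA-destabilising Zfp36 (-1.08) were lower, as were Nfkbiz at 6 d (-1.30) and Zfp36 at 10 d (-1.01).

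Genes known to be induced by TNF, IL-1 and IL-6 were higher mainly at 12 h. Of 12 measured, 7 were higher, with a median of 1.18: the neutrophil chemokine Cxcl5 by 5.44, the acute phase protein Saa3 by 4.47, the iron-binding lipocalin Lcn2 by 3.50 and the protease inhibitor Timp1 by 2.03. Against the 1 d array in place of the control, 7 were also higher. At 1 d, Saa3 (3.55) and Lcn2 (1.81) were still higher. At 50 d Il1b and Il6 were again high. There 2 of the list were higher, the chemokine Cxcl2 (1.45) and the endothelial adhesion molecule Sele (1.45). Both were dim, with control levels of -4.66 and -4.73 where the lowest level well above background was -5.10. At 50 d 2 of the list were lower, Saa3 (-2.85) and Timp1 (-1.30).

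**Figure D3:**
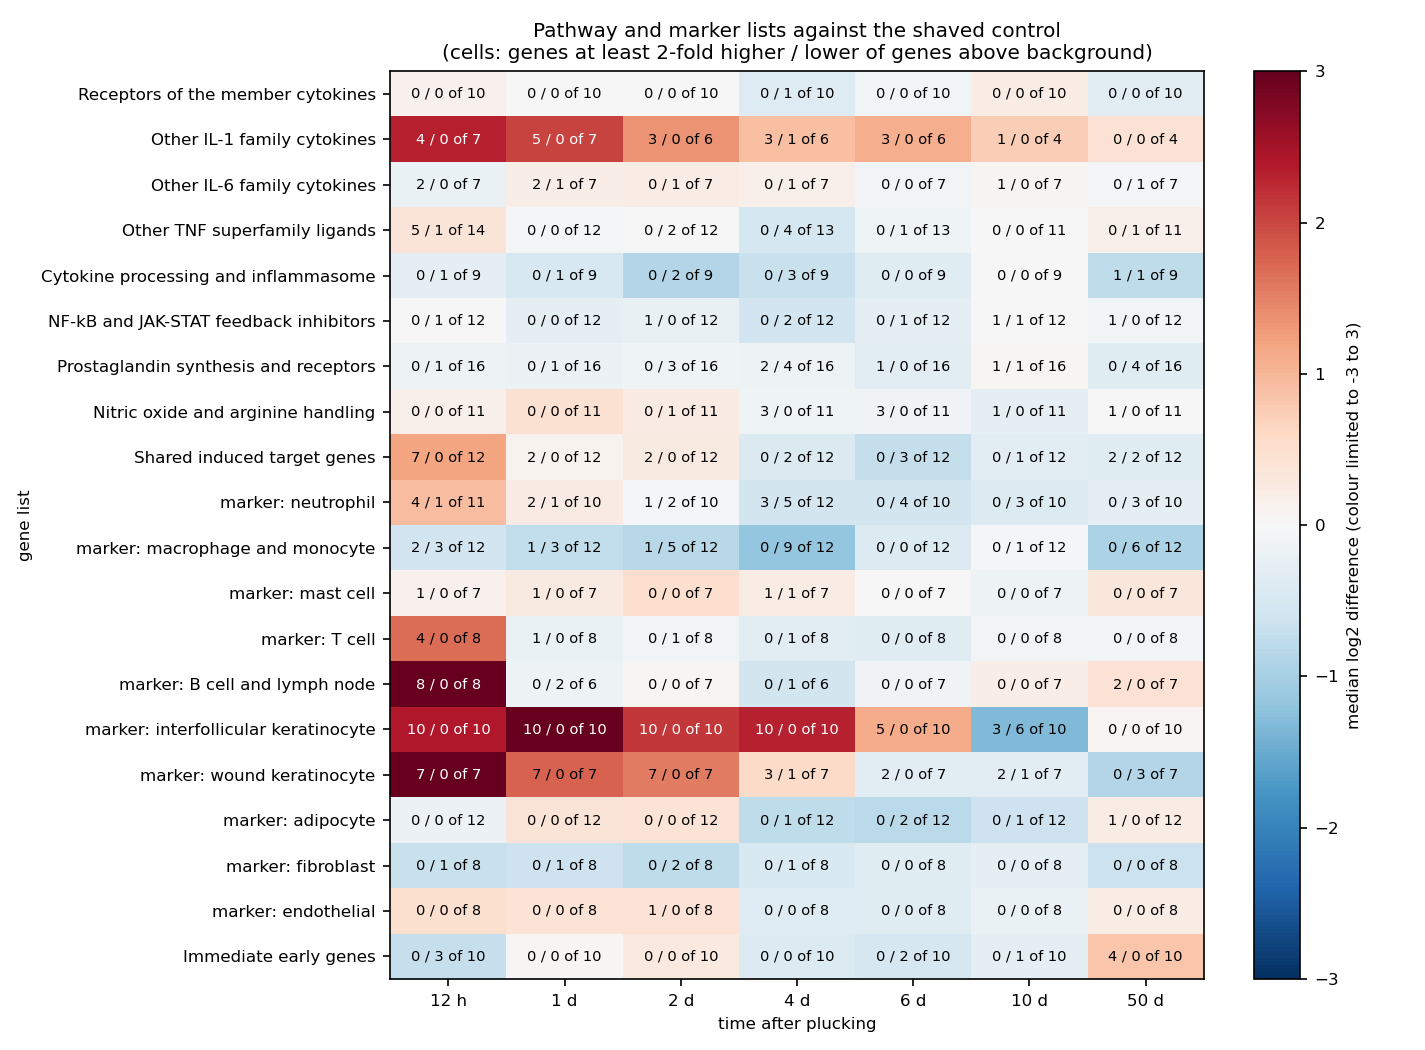
Median difference from the shaved control (colour, log2) of each pathway list at the 7 times, with the numbers of genes higher and lower, of those measured, written in each cell. Targets shared by the cytokines are at 1.18 at 12 h, other IL-1 family members at 2.33 at 12 h and 2.03 at 1 d, and the receptors stay between -0.39 and 0.22.

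The marker lists gave a different picture at the 2 times when Il1b and Il6 were high. At 12 h all markers of B cells and lymph node and of wound keratinocytes, 4 of 8 T cell markers and 4 of 11 neutrophil markers were higher. Of 12 macrophage and monocyte markers 2 were higher (Marco by 5.90 and Clec4d by 3.76) and 3 lower, among them Lyz2 (-1.47) and Aif1 (-1.18). The median difference of the macrophage and monocyte list was -0.56. At 50 d, 3 of 10 neutrophil markers and 6 of 12 macrophage and monocyte markers were lower and none was higher. The summed level of the macrophage list, on the log2 scale, was 8.22 in the control, 7.59 at 12 h and 7.35 at 50 d. That of the neutrophil list was 7.16, 7.74 and 6.89. Most of the neutrophil sum was 1 bright gene, Csf3r, at 7.03, 7.21 and 6.79 on the same arrays, so it does not measure neutrophil content. Immediate early genes, which respond to handling and stress within minutes, also differed in sign: at 12 h, 3 of 10 were lower (Fosb by 1.94, Egr1 by 1.45 and Fos by 1.34), and at 50 d, 4 of 10 were higher, Fosb by 1.41, Atf3 by 1.38, Nr4a1 by 1.25 and Egr1 by 1.02. Of 7 B cell and lymph node markers measured at 50 d, 2 were higher. Adipocyte, fibroblast, endothelial and mast cell markers showed between 0 and 1 of each list past 2-fold at 12 h and 50 d. The 50 d mouse was also the oldest. The part of these in the values of Il1b and Il6 was not tested.

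**Figure D4:**
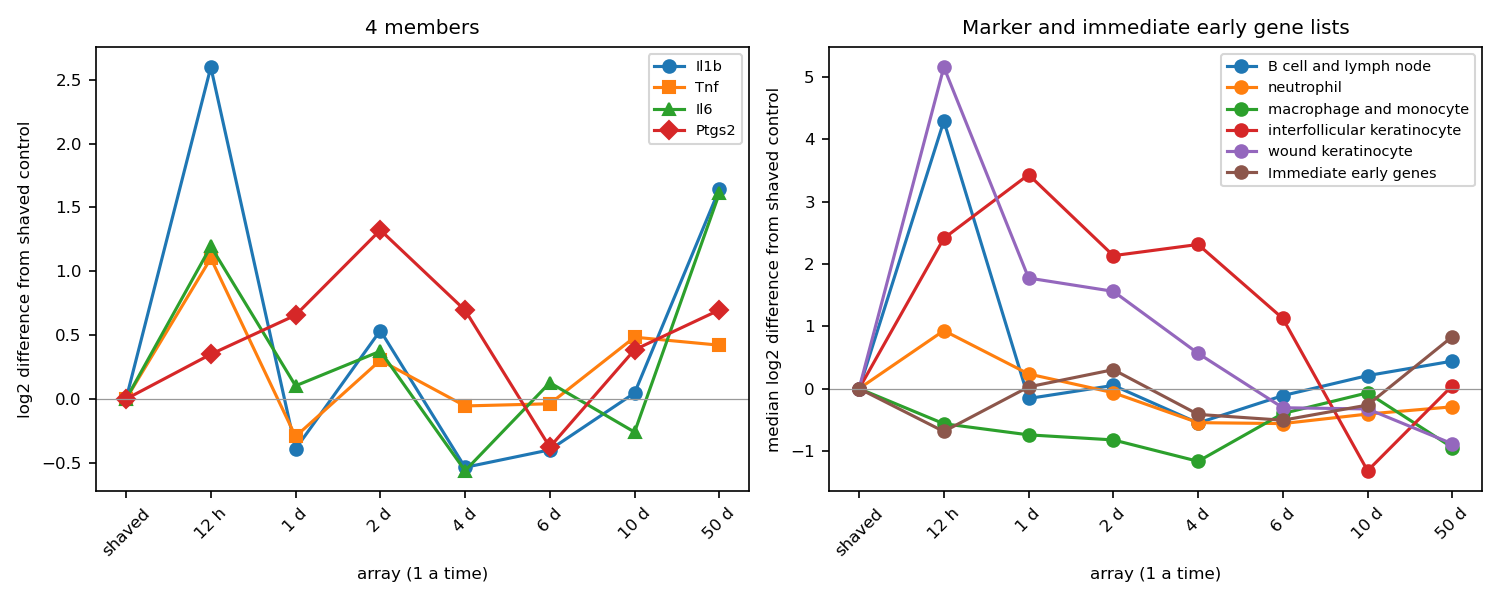
Differences from the shaved control (log2) at the 7 times for Il1b, Tnf, Il6 and Ptgs2 (left) and for the medians of cell type and stress marker lists (right). At 12 h the B cell and lymph node list is at 4.29 and the wound keratinocyte list at 5.16, and at 50 d the immediate early list is at 0.83 and the macrophage list at -0.94.

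The genes whose levels followed each member most closely over the 8 arrays, among 5040 genes that were measured on all of them and varied by at least 2-fold, differed between members. Il1b was closest to the proton channel Hvcn1 (r = 0.96, and 0.92 over the 7 arrays without 12 h), then Lonrf3 (0.93 and 0.84) and Serpinb6b (0.93 and 0.80). Tnf was closest to the T cell transcription factor Tox (0.93 and 0.80), Fam65b (0.93 and 0.79) and the homeobox factor Hhex (0.91 and 0.82). Il6 followed Colq (0.97 and 0.97), the phosphodiesterase Pde4b (0.94 and 0.94) and the chromatin organiser Satb1 (0.94 and 0.93). Ptgs2 followed Rwdd3 (0.93 and 0.97), the endothelial tight junction gene Cldn5 (0.93 and 0.96) and Gsdma2 (0.92 and 0.92). The r values of Il1b and Tnf were lower without the 12 h array, by more than those of Il6 and Ptgs2. These are descriptions over 8 arrays, picked as the highest among all of those genes.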

How the data were processed

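Total RNA was amplified, labelled with Cy3 and hybridised to 1-colour Agilent arrays, 1 per sample, on 1 slide. Per the file headers, the deposited values are the intensity of each spot from Agilent Feature Extraction 10.5.1.1, background-subtracted and detrended by the authors with a surrogate value for dim spots, and no normalization between arrays is recorded. Probe positions are on mm9 per the file headers. Exon and UTR positions were not analysed here.

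Control spots and spots with outlier flags were left out, 13 of 55681 probes were dropped, and spots of a probe were averaged on the log2 scale after subtracting the log2 of the array's 75th percentile. The brightest probe stood for a gene. SEs between spots cover error within arrays only. Where the dimmer array was not well above background, its own value entered the counts and medians, and the fold is written as at least N-fold against the higher of that value and the lowest signal well above background there. The computation was tested on simulated data.

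With 1 sample per group there is no test. The members and the 20 lists were chosen with earlier results of these data known. The motifs were chosen with the sequences in view. Named list genes are those with the largest differences, up to 4 per list and time. Fasl, Tnfsf18, Il1f10, Il33, Retnlg, Ptger4, Hpgds, Ly6g and Csf3r were named after their values were seen. Similar genes are the 3 with the highest Pearson r. Alternatives were quantile normalization, median centring, normexp (limma 3.58.1, R 4.3.3, offset 50), other folds and filters, and the 50 d reference. The other software was pandas 2.3.3 and numpy 2.4.6 under Python 3.11.15. On the 10 d array the slope of the spike-ins was out of range, per the file headers. The age at plucking in the labels' protocol is lower than the ages given for the samples. The value of 1 gene among the relatives of IL-6 is not reported here.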

Additional observations from a re-analysis of the deposited data

How the results depend on the processing

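With the normexp correction the members higher were 1 at 12 h (Il1b) in place of 4, and 0 at 6 d in place of 1. Its offset of 50 draws dim signals together by construction. For dim members such as Tnf, Csf3 and Il1a it therefore cannot decide whether they differed. With both arrays required to be well above background, or with dim members at their bound, none was higher at 6 d. A threshold of 3-fold left 1 at 12 h and 0 at 2 d. A threshold of 1.5-fold gave 1 higher at each of 1 d, 4 d and 10 d and 1 lower at each of 2 d and 6 d, and no filter gave 2 higher at 2 d and 1 at 4 d. Against the 50 d array instead of the control, 0 members were higher at 12 h and 2 d and 1 at 10 d, and 2 were lower at each of 1 d, 2 d, 4 d and 10 d and 3 at 6 d. Against that array Il6 at 12 h turned to -0.41. The cause was not tested. Median centring moved none of the 70 member differences beyond 0.17 on the log2 scale and quantile normalization moved 6. The median of all genes at 4 d was -0.13, and at 6 d it was -0.20 under normexp. No paired analysis was possible because every group has 1 sample, so no replicate could be left out either. Csf3, Il1a, Lif and Il1rn, whose single spots gave signals of at most 65.4, are the least certain.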
